A study of Homo sapiens with 6 samples.

Results

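The comparison described here sets the 2 libraries from cells given 100 µM GenX against the 2 control libraries, 4 of the 6 libraries of the series, and it was taken over every gene listed. Each library listed 57500 genes, of which 3180 had enough counts to be tested: 3145 encoded in the nucleus and 35 in mitochondrial DNA (mtDNA). GenX is the trade name for a perfluorinated ether carboxylic acid used in place of perfluorooctanoic acid in fluoropolymer manufacture. The cells were HepG2, an established human liver carcinoma line with its genotype labelled as WT, and were exposed for 48 h. Controls received the solvent DMSO alone, and whether the GenX cultures received it too is not stated. Mitochondria were isolated with a kit, and stranded libraries depleted of ribosomal RNA were made from their RNA. All libraries carry the same batch label. The replicates are not stated to be separate cultures, so p-values measure the spread between these libraries, which may be technical. The other 2 libraries, at 10 µM, entered the estimate of spread in the model and the filter on low counts. With the 4 libraries alone that filter kept 6423 genes, none passed edgeR's test, and the median log2 fold change was 0.84 rather than 0.35, so shares of tested genes depend on which libraries set the filter.

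Human mtDNA is a circle copied into long transcripts from both strands, and these are cut into ribosomal, transfer and messenger RNAs, mostly where a transfer RNA lies between its neighbours. Its messenger RNAs encode core subunits of respiratory complexes I, III and IV and of ATP synthase. All other subunits, and the proteins that transcribe, cut and translate mtDNA, come from nuclear genes. When mitochondria or the endoplasmic reticulum (ER) are disturbed, kinases can phosphorylate the translation factor eIF2, and the transcription factor ATF4 is then made and turns on genes for amino acid supply and stress signalling, known as the integrated stress response. A mitochondrial preparation also carries RNA from nuclear genes, on attached cytosolic ribosomes and ER or through carry-over.

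The controls were shallower than the treated libraries. Control 1 held 240683 counts and control 2 held 60854, against 2141282 and 1338397 at 100 µM, so that 3 counts were worth 12.5, 49.3, 1.40 and 2.24 CPM, that is, counts scaled to a common library total. Where 4 values are given in a row below, they are in that order: control 1, control 2, 100 µM replicate 1 and 100 µM replicate 2. With each library taken at no less than 3 counts, 29.6% of the tested nuclear genes differed by 2-fold or more between the 100 µM libraries. Between the controls 73.8% did so, but that share is raised by the floor. A gene with up to 3 counts in both controls is scored as differing, because 3 counts stand for unlike CPM there. Of the 3145 genes, 234 had no count in either control and 400 had 1 to 3, so the percentages are not like for like. At the depth of control 1 the 100 µM libraries would show 10016 and 9010 genes with a count, against the 8226 found in control 1, and at the depth of control 2 they would show 7444 and 6824, against 5210. MALAT1, a nuclear long non-coding RNA, accounted for 13.5%, 4.61%, 2.88% and 2.60% of counts. Of 10 hepatocyte markers of HepG2, 9 had counts in both 100 µM libraries and 5 in both controls, and FGA had none in any. AFP, TTR and FGB were at 0 in both controls, with no more than 80 counts in a 100 µM library. The summed level of the 10 markers was 5929, 12193, 10977 and 10789.8 CPM. Of 19 markers of other lineages, 9 were at 0 in all 4 libraries, PTPRC and CD3E of leukocytes and CDH5 of endothelium among them. Both controls had counts for 5 of the 19, and both 100 µM libraries for 6. LYZ was at 307, 131, 24.3 and 44.8 CPM and COL1A1 at 208, 98.6, 31.3 and 31.4 CPM. EPCAM, at 41.5, 32.9, 426 and 173 CPM, was higher at 100 µM and made up most of the sum there. The list summed to between 253 and 586 CPM. Without EPCAM its sum at 100 µM was 0.155 times the control mean and below both controls.

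No gene passed edgeR's quasi-likelihood test at a Benjamini-Hochberg adjusted p under 0.05 (0 of 3180, 0.0%). At an unadjusted p under 0.05 there were 573 genes, of which 381 were higher at 100 µM, all of them nuclear (12.1% of those tested). The 192 lower ones were 160 nuclear and 32 mtDNA genes, or 5.09% of the nuclear and 91.4% of the mtDNA genes tested. DESeq2's Wald test on the same genes called 220, 49 higher and 171 lower, with 31 mtDNA genes among the lower, and on every gene with a count it called 3. The median log2 fold change of all tested genes was 0.35 under TMM scaling, and it was -0.05 with DESeq2 size factors and 1.02 with library totals, so a gene's direction is read here against that shift. Given 2 controls that differ from each other, a gene was called consistent against both controls when both 100 µM libraries lay at least 2-fold above, or below, each control library in CPM. A library without enough counts was taken at no less than 3 counts, and a gene counted as lower needed at least 10 counts in each control.

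Of the 7 mtDNA messenger RNAs of complex I, 6 were below both controls at 100 µM and MT-ND4 lay between them. Of the 3 of complex IV, MT-CO2 was below both controls relative to library totals, and MT-CO1 and MT-CO3 overlapped with them. Of the 35 mtDNA genes, 31 lay below both controls in both 100 µM libraries (88.6%), and 21 did so by at least 2-fold (60.0%). MT-TL1 alone lay above both controls (2.86%), by less than 2-fold. Of the 13 protein genes, 10 were lower without overlap and 5 were consistent against both controls. All 5 were complex I subunits, and complex I has 7 mtDNA genes.

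MT-ND2 (positions 4470 to 5511, plus strand), a membrane subunit of complex I, had 3378, 4601, 786 and 584 CPM. Its groups did not overlap, and its mean was 3990 ± 865 CPM in controls and 685 ± 143 CPM at 100 µM (SD, n = 2 each). The log2 fold change was -3.12 ± 0.51 (SE), with an adjusted p of 0.115 in edgeR. MT-ND5, the last plus-strand messenger before cytochrome b, had 2892, 11963, 1181 and 856 CPM. The controls of MT-ND5 differed widely from each other, and both lay above both 100 µM libraries. Its log2 fold change was -3.31 ± 0.55, with an adjusted p of 0.115. MT-ND1 was at 3586, 6047, 1590 and 1287 CPM, 2.49-fold above the 100 µM mean in control 1 and 4.20-fold above it in control 2. MT-ND3 had 370, 2399, 61.2 and 98.6 CPM. It showed the widest gap of the 13, with a log2 fold change of -4.51 ± 0.88. MT-ND6, the single protein gene of the minus strand, had 1213, 4108, 347 and 414 CPM, with no overlap.

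MT-ND4L and MT-ND4 share a bicistronic messenger, and they did not move alike. MT-ND4L was at 428, 2547, 227 and 246 CPM, below both controls but by less than 2-fold against control 1. MT-ND4 was at 4907, 11536, 5857 and 5421 CPM, between the controls. The reading frames of MT-ND4L and MT-ND4 overlap (positions 10470 to 10766 and 10760 to 12137), and how reads over both were counted is not given in the sources used here.

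Whether complex IV messengers were lower as a group depended on the scaling. Their summed level overlapped between the groups relative to library totals, at 18842, 34262, 21772 and 20208 CPM, 0.791 times the control mean. It was below both controls, at 0.544 times under TMM scaling, 0.393 times with DESeq2 size factors and 0.551 times without MT-CO1. MT-CO1 (positions 5904 to 7445), the catalytic subunit, was at 6934, 11010, 12143 and 10471 CPM, and MT-CO3 was at 2061, 5439, 3423 and 3729 CPM. Both groups overlapped for each gene, and the fitted log2 fold changes of -0.22 and -0.56 changed sign with the scaling or filter for both. MT-CO2 had 9847, 17813, 6206 and 6008 CPM and lay below both controls, by 1.61-fold against control 1. MT-CYB of complex III was at 2647, 9202, 1932 and 1906 CPM. MT-ATP6 was at 1143, 4240, 1081 and 1021 CPM, and MT-ATP8 at 195, 1002, 53.7 and 108 CPM. For these 3 genes both 100 µM libraries were below both controls, and control 1 was much the nearer.

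**Figure D1:**
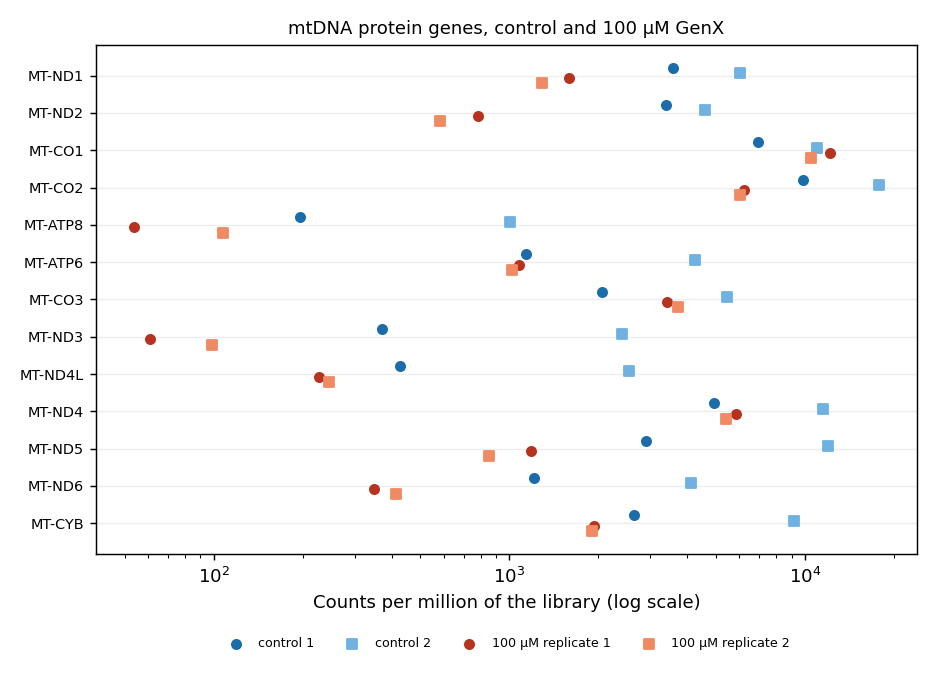
Level of the 13 mtDNA protein genes in each library, in CPM on a log axis, in order of position. Points of the 2 controls and the 2 libraries at 100 µM are offset vertically; MT-ND5, MT-ND2, MT-ND1, MT-ND6 and MT-ND3 sit at least 2-fold below both controls, and MT-CO1 does not.

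The makeup of the mtDNA messengers differed between the groups, whichever control was used. Per kilobase of gene, MT-ND2 and MT-CO1 stood at 3242 and 4497 CPM per kb in control 1 and at 4416 and 7140 in control 2. At 100 µM they stood at 755 and 7875 in replicate 1 and at 561 and 6790 in replicate 2. As a share of mtDNA protein counts, MT-CO1 took 17.5%, 11.98%, 34.8% and 32.6%, and MT-ND2 took 8.53%, 5.01%, 2.25% and 1.82%. The complex IV genes together took 47.6%, 37.3%, 62.4% and 62.9%. Their share was 20.2 percentage points higher at 100 µM (42.4 ± 7.29% against 62.6 ± 0.319%, SD, n = 2 each; exact permutation p = 0.33, two-sided, the smallest that 2 against 2 can give). Complex I genes took 42.4%, 47.0%, 28.8% and 27.7%. The exact 95% binomial interval of the complex IV share, which covers counting error only, was 46.6% to 48.6% in control 1 and 36.0% to 38.6% in control 2, and neither reached the 100 µM values. As a share of all counts, mtDNA took 4.35%, 10.4%, 3.58% and 3.32%, a difference of -3.94 percentage points that rested mostly on control 2. Without control 2 it was -0.899 points, and with MALAT1 left out of the totals it was -4.44 points. Nuclear protein-coding genes took 79.7%, 80.0%, 89.5% and 90.5% of all counts. In shares of bulk RNA from a preparation, fewer mitochondria, less RNA in each and more RNA from nuclear genes cannot be told apart.

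The transfer RNAs showed the widest gap. All mtDNA transfer RNAs but MT-TL1 were lower at 100 µM without overlap, and 16 of the 22 were consistent against both controls. The controls stood 5.16-fold to 38.1-fold (control 1) and 16.2-fold to 246-fold (control 2) above the 100 µM mean over these 21. MT-TF, which carries phenylalanine and is the first gene of the plus strand, had 208, 1380, 6.54 and 12.7 CPM from 50, 84, 14 and 17 counts. Its log2 fold change was -6.74 ± 1.13, with an adjusted p of 0.115. MT-TV, which lies between the 2 ribosomal RNA genes, had 270, 1347, 18.2 and 29.9 CPM, a log2 fold change of -5.48 ± 0.96 and an adjusted p of 0.128. MT-TC of the minus strand was the most abundant in the controls, at 1030, 2054, 65.4 and 69.5 CPM. Both strands took part, since all 8 minus-strand transfer RNAs were among the 21.

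MT-TL1, the leucine (UUR) transfer RNA next to the large ribosomal RNA gene, stood apart. Its level was 744, 756, 757 and 774 CPM from 179, 46, 1620 and 1036 counts, nearly the same in all 4 libraries, and its fitted log2 fold change of -0.59 changed sign with library totals or without a filter. It made up 19.0%, 6.06%, 79.1% and 73.6% of transfer RNA counts. The other 21 together took 7.41%, 11.3%, 0.570% and 0.855% of the remaining mtDNA counts, 13.1-fold less at 100 µM (9.36 ± 2.75% against 0.712 ± 0.202%, SD, n = 2 each; exact permutation p = 0.33). The share was below both controls in both libraries. The 3 transfer RNA genes of the first part of the plus strand are printed because the first and second of them were far lower at 100 µM and the last was not. They are read in 5′ to 3′ direction as DNA letters from the GENCODE v29 transcripts on GRCh38, with no base singled out.
MT-TF, chrMT:577-647, plus strand: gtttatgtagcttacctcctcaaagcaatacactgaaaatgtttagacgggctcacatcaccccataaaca
MT-TV, chrMT:1602-1670, plus strand: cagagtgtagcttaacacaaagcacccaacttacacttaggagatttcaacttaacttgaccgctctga
MT-TL1, chrMT:3230-3304, plus strand: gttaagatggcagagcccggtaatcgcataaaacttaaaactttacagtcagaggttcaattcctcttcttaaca
All 3 are close to the shortest RNA that a standard library keeps, and counts assigned to a gene of this length can come from reads of a longer precursor. MT-TL1 adjoins the ribosomal RNA genes, which were not analysed here, but so does MT-TV, which was far lower at 100 µM. Reads that cross a boundary cannot be told apart from mature transfer RNA in gene counts.

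**Figure D2:**
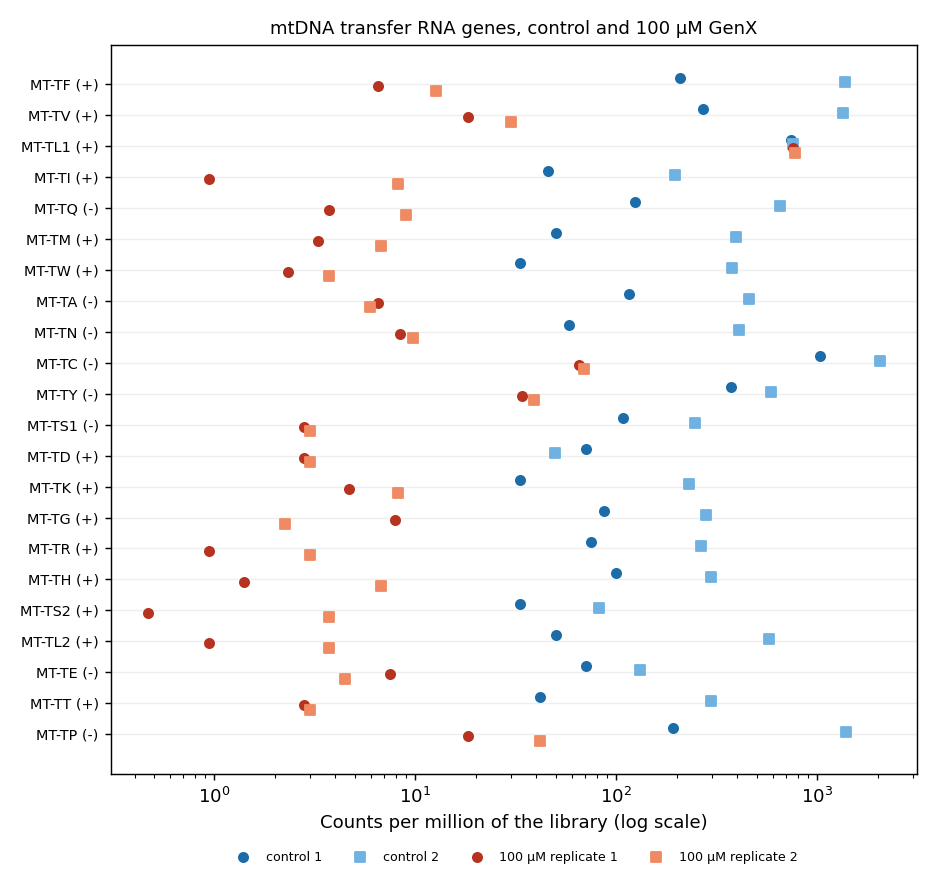
Level of the 22 mtDNA transfer RNA genes in each library, in CPM on a log axis, in order of position with the strand in brackets. The 2 libraries at 100 µM lie left of both controls for 21 genes, and the 4 points of MT-TL1 fall together.

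Since the controls differed, each was also set against the 100 µM pair on its own in edgeR, with the other control left out and the lone library assumed to vary like the other groups. Against control 1, 24 mtDNA genes were lower at an adjusted p under 0.05 (68.6%), and against control 2, 26 were (74.3%). The 2 sets shared 21 genes, 87.5% of the first and 80.8% of the second: MT-ND5, MT-ND2, MT-ND1, MT-ND6, MT-ND3 and 16 transfer RNAs. Both fits use the same 100 µM libraries and so are not independent. Over all genes that each fit tested, the median log2 fold change was 1.39 against control 1 and 2.04 against control 2. Values from these fits, for mtDNA and nuclear genes, are read against those shifts. MT-ND2 fell by a log2 fold change of 2.93 ± 0.37 against control 1 (adjusted p = 2.6e-05) and of 2.49 ± 0.41 against control 2 (adjusted p = 0.0218). For MT-TF the values were -5.05 ± 0.63 (adjusted p = 2.6e-05) and -6.93 ± 0.59 (adjusted p = 0.00562). No mtDNA gene was called higher against either control.

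Nuclear RNAs were mostly higher at 100 µM relative to library totals. Of the 3145 tested nuclear genes, 1542 lay above both controls without overlap (49.0%) and 289 below (9.19%). By the 2-fold rule 727 were higher (23.1%) and 75 lower (2.38%), and with TMM scaling these became 464 and 152. The median nuclear gene was 1.02 higher on the log2 CPM scale. Low counts in the controls weigh on these counts, because 69 of the 727 had no count in either control and 168 had 1 to 3. Such genes entered the test through their 100 µM counts alone. With the filter set by the 4 libraries compared, the same rule gave 727 of 6388 nuclear genes as higher (11.4%) and 88 as lower (1.38%). Among the 505 nuclear genes with at least 10 counts in each control the balance was the other way, with 21 higher (4.16%) and 75 lower (14.9%). The rule for lower genes itself requires those counts, so all 75 fall among the 505 by construction, and nothing is read from this reversal. Of the 727, 453 had fewer than 10 counts over both controls. Counts of list members by this rule are set below beside 23.1% and 2.38%, and a share near these is no result about a list. A further 93 genes were at least 2-fold above control 1 and below control 2, and 58 the reverse.

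**Figure D3:**
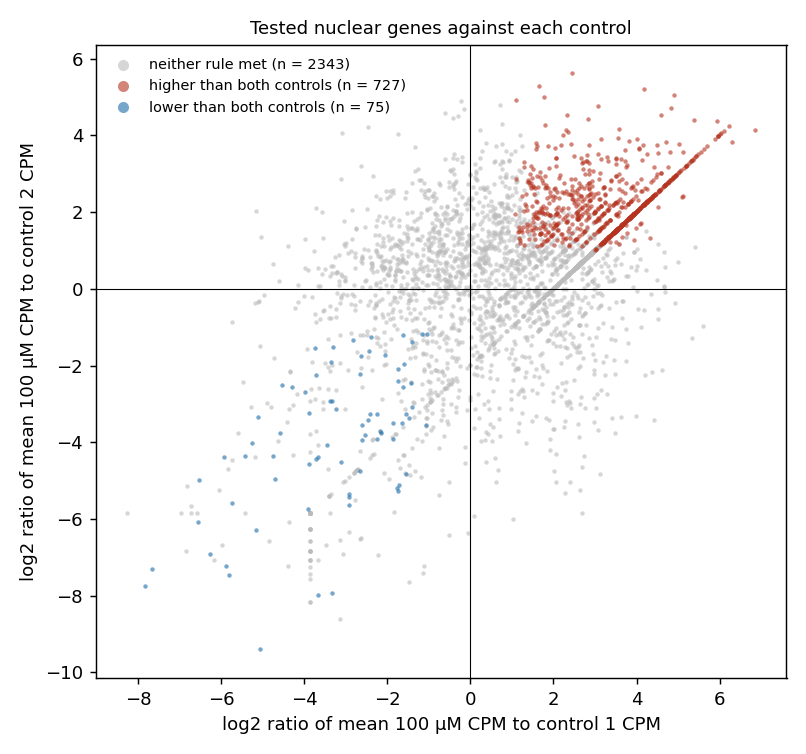
Mean level at 100 µM relative to control 1 (horizontal) and to control 2 (vertical) for 3145 tested nuclear genes, as log2 ratios of CPM with no value taken below 3 counts. Red points are the 727 genes higher and blue points the 75 genes lower than both controls by the 2-fold rule; the slanted line of points is made of genes under 3 counts in both controls.

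Against control 1 alone, 31 nuclear genes passed as higher (0.454%) and 149 as lower (2.18%), and against control 2 alone 26 (0.911%) and 51 (1.79%). No gene was in both lower sets. Both higher sets held 11 genes, 35.5% of the first and 42.3% of the second, and all 11 also met the 2-fold rule. They included chromatin proteins (H3-3B, H2AZ1, KDM3A, RYBP), stress genes (ATF3, HSPA5), the ferritin light chain FTL, the polyamine enzyme ODC1, and AQP3, EIF4A3 and TNFRSF10D, of which the last 3 were chosen after their values were seen.

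H3-3B (chr17:75776434-75785893, minus strand), which encodes the replication-independent histone H3.3, had 174, 181, 4693 and 3687 CPM from 42, 11, 10049 and 4935 counts. The controls were alike and the groups were far apart, a 23.6-fold difference of means. Its log2 fold change was 3.94 ± 1.04 (adjusted p = 0.204) against both controls, 3.96 ± 0.76 (adjusted p = 0.00281) against control 1 and 4.79 ± 0.73 (adjusted p = 0.0158) against control 2. H3-3B has many processed copies in the genome, so its counts are uncertain. H2AZ1 (chr4:99948086-99950388), which encodes the histone variant H2A.Z, had 62.3, 115, 1484 and 1794 CPM. Its groups were 18.5-fold apart, and it passed against control 1 (adjusted p = 0.0202) and against control 2 (adjusted p = 0.0360).

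HSPA5 (chr9:125234853-125241330), the main Hsp70 chaperone of the ER lumen, had 54.0, 49.3, 1373 and 1879 CPM. The controls matched each other, and the 100 µM mean was 31.5-fold higher. FTL had 415, 904, 5557 and 4960 CPM, 7.97-fold higher at 100 µM, and also has processed copies. Its log2 fold change was 3.04 against control 1 alone, where the median of all genes tested was 1.39. Against control 2 alone it was 2.79, where that median was 2.04. KDM3A, a histone H3 lysine demethylase that hypoxia induces, had 45.7, 16.4, 1237 and 1355 CPM. AQP3, a channel for water and glycerol, had 16.6, 0, 985 and 1069 CPM. EIF4A3, the helicase of the exon junction complex, had 24.9, 16.4, 1236 and 830 CPM, and TNFRSF10D, a decoy receptor for TRAIL, had 99.7, 49.3, 1659 and 1978 CPM. In each of these genes the controls rested on 27 counts or fewer apart from FTL, and the 100 µM libraries on 1111 or more.

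ODC1, ATF3 and RYBP had a single count in control 1 and none in control 2. ODC1 (chr2:10439968-10448504), the first enzyme of polyamine synthesis, had 1446 and 1380 counts at 100 µM, and the ratio of pooled levels was 245 with an exact 95% counting interval of 43.9 to 9676. ATF3 (chr1:212565334-212620777), a stress-induced transcription factor, had 1580 and 1097 counts, a ratio of 232 (interval 41.6 to 9166). RYBP, a subunit of polycomb repressive complex 1, had 1993 and 897 counts, a ratio of 250.4 (interval 44.9 to 9895). The 3 intervals cover counting error only. These genes were chosen among those already at least 2-fold higher, so the distance of the intervals from equality is no test.

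Genes of the integrated stress response had a higher summed level at 100 µM. The list had 32 members, of which 22 were tested: 15 met the 2-fold rule as higher and 0 as lower, against 23.1% and 2.38% of all tested nuclear genes. None of the 15 had 10 counts in each control, and 6 had fewer than 10 over both, so members could pass the filter through the 100 µM libraries where they are high. Of the 3 tested members with at least 10 counts in each control, 2 lay above both controls and 0 met the rule. Over all 505 nuclear genes with such counts, 87 lay above both controls. Both 100 µM libraries lay above both controls for 20 of the 22, against 49.0% of all tested nuclear genes. The median log2 ratio of the tested members was 3.06, against 1.02 over all tested nuclear genes. The summed level over all listed members, tested or not, was 3154, 2547, 15198 and 14922 CPM, a 5.28-fold difference of means that was 2.46-fold with DESeq2 size factors and 4.69-fold without STC2, its most abundant member. No member passed edgeR's test with both controls in the fit, and 5 had an unadjusted p under 0.05.

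ATF4, the transcription factor at the centre of the response, is controlled chiefly by translation, and its RNA was at 58.2, 592, 1178 and 1503 CPM. Both 100 µM libraries were above both controls, by just under 2-fold at the closest, so it missed the rule. Its partner CEBPG, with which ATF4 forms dimers, was at 4.15, 16.4, 281 and 350 CPM. DDIT3, which encodes the transcription factor CHOP, was at 20.8, 0, 438 and 232 CPM, and CEBPB was at 112, 0, 339 and 275 CPM. PPP1R15A, the phosphatase subunit that reverses eIF2 phosphorylation, was at 37.4, 82.2, 346 and 407 CPM. All 4 met the rule, and none had more than 27 counts in a control.

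Transporters and enzymes of amino acid supply made up much of the rest. SLC3A2 and SLC7A5 encode the 2 chains of a large neutral amino acid transporter. SLC3A2 was at 108, 115, 1230 and 1615 CPM and SLC7A5 at 83.1, 49.3, 798 and 674 CPM. SLC7A11, the cystine transporter that pairs with SLC3A2, was at 8.31, 0, 429 and 370 CPM, a pooled ratio of 61.3 (interval 16.9 to 506). Each of the 3 chains was thus higher than both controls. MTHFD2, a mitochondrial folate enzyme, was at 12.5, 0, 370 and 153 CPM, and ASNS, asparagine synthetase, at 91.4, 0, 398 and 244 CPM. PHGDH of serine synthesis was at 58.2, 82.2, 183 and 173 CPM. These 3 met the rule too, PHGDH by the least.

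Secreted and feedback members were less uniform. STC2, a secreted glycoprotein, was at 586, 65.7, 3454 and 2974 CPM and met the rule. GDF15, a secreted hormone of mitochondrial stress, was at 1068, 871, 2058 and 2451 CPM, above both controls but by less than 2-fold against control 1. The feedback inhibitor TRIB3 was at 357, 115, 386 and 646 CPM. DDIT4, an inhibitor of mTORC1, was at 58.2, 509, 517 and 385 CPM and WARS1, a tryptophan transfer RNA synthetase, at 133, 0, 19.2 and 80.7 CPM. DDIT4 and WARS1 were the tested members whose groups overlapped. FGF21 and ALDH1L2 had no count in any of the 4 libraries.

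**Figure D4:**
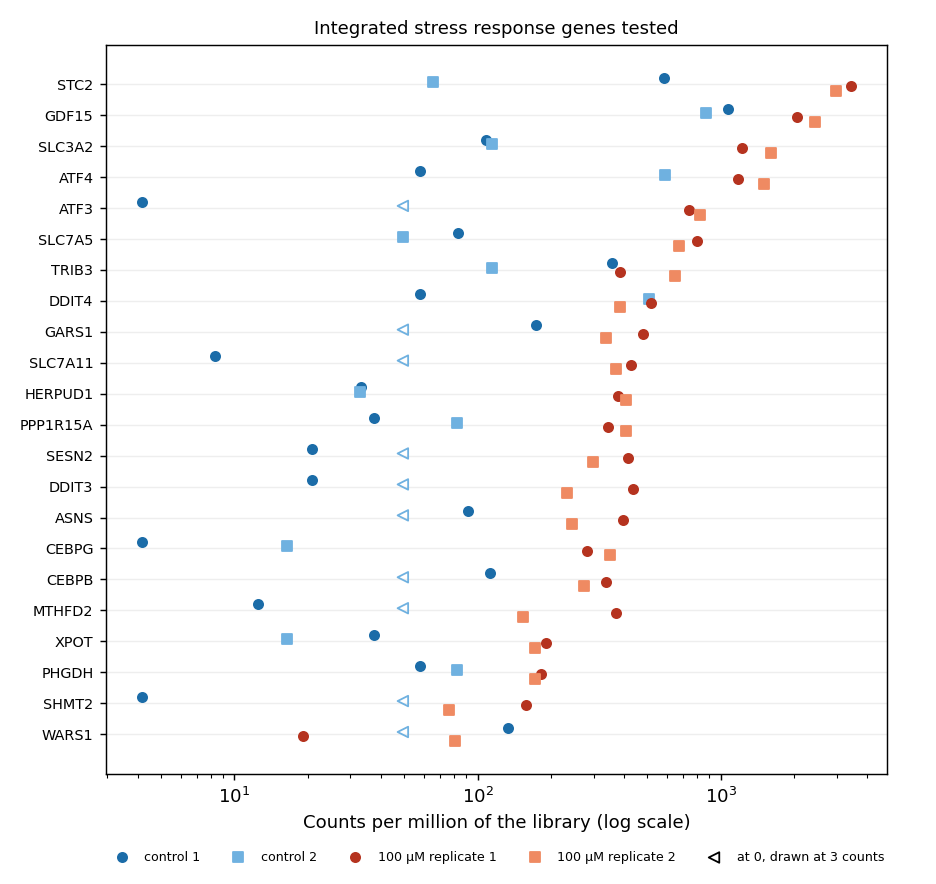
Level of the 22 tested integrated stress response genes in each library, in CPM on a log axis, ordered by the mean at 100 µM. Open triangles stand for libraries with no count, drawn at the level of 3 counts. For 20 of the 22 genes both 100 µM libraries lie above both controls, against 49.0% of all tested nuclear genes.

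ATF4 and C/EBP proteins bind as dimers to a composite element, and 4 of the higher members carry its letters near the start of the gene. The motif searched was TGATGNAA, with N for any base, on both strands of the 250 bases before each RefSeq gene start on GRCh38.p14. It was found for 4 of the 14 higher members with a window (28.6%) and for 8 of the 27 listed members with one (29.6%), against 3.89% of all genes with a window and 3.14% of all windows. The 60 bases around each match are printed on the strand of the gene to show the element, with the match in capitals.
ASNS, chr7:97872443-97872502, minus strand: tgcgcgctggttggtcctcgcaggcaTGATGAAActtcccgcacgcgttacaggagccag
ATF3, chr1:212565190-212565249, plus strand: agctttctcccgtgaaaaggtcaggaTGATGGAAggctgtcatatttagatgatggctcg
CEBPG, chr19:33374045-33374104, plus strand: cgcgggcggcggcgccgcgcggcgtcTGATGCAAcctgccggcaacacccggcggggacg
HERPUD1, chr16:56931940-56931999, plus strand: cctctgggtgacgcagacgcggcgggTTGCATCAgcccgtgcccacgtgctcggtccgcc
In HERPUD1 the match lies on the opposite strand, so its reverse complement is seen. The matches begin 68, 191, 42 and 176 bases before the listed start of ASNS, ATF3, CEBPG and HERPUD1. HERPUD1, an ER membrane protein of protein degradation, was at 33.2, 32.9, 380 and 408 CPM. The list was chosen as genes of this response, so its share above that of all genes is no result of these data. The higher members had about the same share as the whole list. A match describes these letters and does not show binding.

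ER chaperones were split. Of 13 tested, 5 met the rule as higher and 0 as lower (23.1% and 2.38% over all tested nuclear genes), while the summed level was 3249, 3484, 6908 and 7463 CPM. With DESeq2 size factors the summed groups overlapped. HSPA5 led the higher members. HSP90B1, the ER Hsp90, was at 702, 657, 2047 and 1982 CPM, and the disulfide isomerase PDIA3 was at 16.6, 0, 305 and 307 CPM. PDIA6 had no count in either control and 290 and 202 at 100 µM, at least 14.4-fold higher than 3 counts over both controls would give. Against 3 counts in control 1 or control 2 alone it was at least 11.5-fold and 2.90-fold higher. Other chaperones went the other way: CALR was at 515, 756, 220 and 362 CPM, PDIA4 at 523, 246, 154 and 135 CPM and SEL1L at 316, 427, 196 and 176 CPM. These 3 lay below both controls without overlap, as 9.19% of all tested nuclear genes did, and none met the 2-fold rule. In the cytosolic heat shock list 2 of 8 met the rule as higher, near the 23.1% of all tested nuclear genes. HSPA1A, an inducible Hsp70, was at 29.1, 0, 220 and 328 CPM.

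Immediate early genes, which growth and stress signals switch on within minutes, and kinases of the MAPK cascades were also higher in part. Of 16 tested early genes 7 met the rule as higher and 1 as lower, against 23.1% and 2.38% of all tested nuclear genes. The summed level was above both controls relative to library totals, 2.33-fold, and the groups overlapped with DESeq2 size factors. KLF10 was at 16.6, 16.4, 346 and 395 CPM, FOS at 116, 0, 379 and 365 CPM and ERRFI1, a feedback inhibitor of EGFR, at 881, 460, 2722 and 2352 CPM. JUND was the lower member, at 540, 1035, 169 and 182 CPM. Of 14 listed MAPK genes 5 were tested and 3 were higher by the rule, against the same 23.1%, and these 3 had 5 counts or fewer over both controls. MAP2K1, which encodes MEK1, was at 12.5, 32.9, 583 and 967 CPM. MAP2K3, a kinase of p38, had 0 counts in both controls and 787 and 420 at 100 µM, at least 34.2-fold higher than 3 counts over both controls would give. Against 3 counts in control 1 or control 2 alone it was at least 27.3-fold and 6.91-fold higher. MAPKAPK2, a kinase downstream of p38, was at 8.31, 16.4, 166 and 196 CPM. The MAPK list summed to overlapping values under TMM scaling, and MAPK13, its most abundant member, was at 366, 1117, 311 and 161 CPM.

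Nuclear genes for mtDNA expression summed to 353, 197, 1198 and 1456 CPM over all 22 listed, above both controls at 100 µM. Of these 7 were tested, 4 met the rule as higher (23.1% over all tested nuclear genes) and 0 passed edgeR's test. None of the 7 had 10 counts in each control, and the 4 had 10 counts or fewer over both, so they did not pass the filter on control counts. LRPPRC and SLIRP form the complex that stabilises mtDNA messengers. LRPPRC was at 12.5, 0, 260.1 and 280.2 CPM and SLIRP at 4.15, 0, 220 and 276 CPM. POLRMT, the mitochondrial RNA polymerase, was at 37.4, 16.4, 130.3 and 185 CPM, and POLG2, the accessory subunit of the mtDNA polymerase, was at 37.4, 0, 129 and 246 CPM. Both members of each pair were above both controls. TFAM, which packages mtDNA and starts its transcription, was at 4.15, 0, 71.0 and 179 CPM. The proteins that cut transfer RNAs from the transcripts were too thinly counted: ELAC2 was at 4.15, 32.9, 43.9 and 7.47 CPM, PRORP had 1, 0, 0 and 8 counts and TRMT10C was at 54.0, 0, 10.7 and 3.74 CPM. None of these 3 entered the test, and TRMT10C was below control 1.

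Nuclear subunits of the respiratory chain did not follow one direction. For complex I, 5 of 17 tested met the rule as higher, near the 23.1% of all tested nuclear genes, and 0 as lower, and the summed level of 1525, 12686, 3410 and 3804 CPM lay between the controls. NDUFA6 was at 8.31, 16.4, 258 and 180.1 CPM and NDUFB8 at 12.5, 0, 165 and 186 CPM. NDUFB9, at 108, 5505, 621 and 253 CPM, and NDUFA1, at 20.8, 3155, 167 and 296 CPM, were high in control 2 alone. For complexes II to V, 14 of 31 met the rule as higher and 0 as lower, with sums of 3980, 9071, 8345 and 8832 CPM. UQCRQ of complex III was at 16.6, 0, 299.8 and 497 CPM, CYCS, which encodes cytochrome c, at 16.6, 0, 198 and 110 CPM and ATP5PB at 16.6, 16.4, 192 and 134 CPM. The sums of both lists overlapped between the groups.

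Of 13 tested ribosomal proteins of the organelle 3 were higher by the rule, near the 23.1% of all tested nuclear genes, and their summed level overlapped between the groups. MRPL33 was at 4.15, 32.9, 284 and 354 CPM. Of 10 tested import factors and chaperones 6 were higher. Their summed level was above both controls, 1.84-fold relative to library totals, and overlapped with DESeq2 size factors. HSPA9, the matrix Hsp70, was at 4.15, 16.4, 586 and 319 CPM, and HSPD1, the matrix chaperonin, was at 29.1, 82.2, 620 and 696 CPM. TIMM44, which ties Hsp70 to the inner membrane import channel, was at 12.5, 16.4, 132 and 190 CPM. All 3 were above both controls, with no more than 7 counts in a control.

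Histone and nucleosome genes had the highest ratio of summed levels, and it rested largely on 2 of them. The list summed to 827, 1232, 7861 and 7678 CPM, 7.55-fold higher at 100 µM, 3.69-fold with DESeq2 size factors and 4.20-fold without H3-3B. By the rule 3 of 9 tested were higher (23.1% over all tested nuclear genes), H3-3B, H2AZ1 and H4C3, the last at 16.6, 32.9, 184 and 138 CPM. H3-3A, the other gene for H3.3, was at 133, 131, 104 and 161 CPM. Its level thus spanned that of the controls, where H3-3B was far above them. The sums of the integrated stress response, mtDNA expression and histone lists stayed above both controls under each of 4 other scalings, one of them with MALAT1 left out of the totals, and without their most abundant member.

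**Figure D5:**
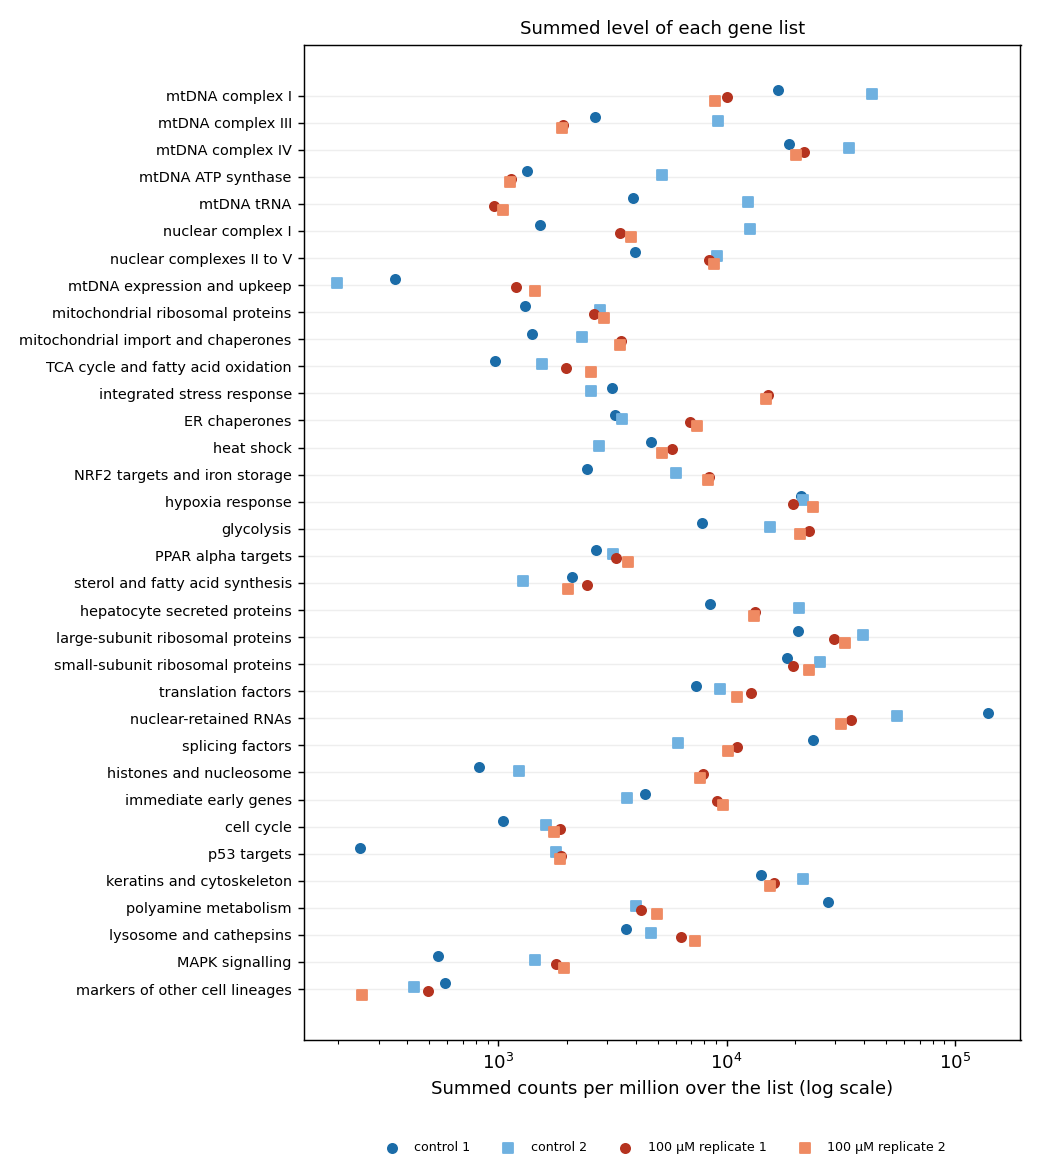
Summed level of 34 gene lists in each library, in CPM on a log axis. The integrated stress response, the histones and the genes of mtDNA expression and upkeep lie to the right of both controls at 100 µM, and mtDNA complex I, mtDNA ATP synthase and mtDNA transfer RNAs to the left.

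In metabolism, glycolytic genes were higher in part, while the sum of the hypoxia response list was not. Of 12 glycolytic genes 6 met the rule as higher, against 23.1% of all tested nuclear genes, with sums of 7824, 15496, 22996 and 21048 CPM. LDHA, lactate dehydrogenase A, was at 461, 789, 4683 and 3253 CPM, HK2, hexokinase 2, at 303, 65.7, 1532 and 1506 CPM and ENO1 at 989, 1742, 4353 and 3985 CPM. With DESeq2 size factors the sums of the groups overlapped. Hypoxia response genes summed to 21277, 21658, 19476 and 23922 CPM, with 3 of 13 higher by the rule, the share seen over all tested nuclear genes: KDM3A, BNIP3, a mitophagy receptor at 457, 49.3, 1825 and 1298 CPM, and PFKFB3 at 8.31, 49.3, 337 and 211 CPM. EGLN3, an oxygen sensor, was below both controls at 1571, 444, 239 and 387 CPM.

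Some perfluoroalkyl acids are known to induce PPAR alpha targets in rodent liver. Of 6 tested, 1 was higher and 1 lower by the rule, against 23.1% and 2.38% of all tested nuclear genes. The higher one was HADHA, a subunit of the trifunctional protein of fatty acid oxidation, at 20.8, 16.4, 148 and 130.01 CPM. HADHB, the partner of HADHA in mitochondria, was at 0, 32.9, 150.4 and 367 CPM. Among proteins that hepatocytes secrete, 0 of the 10 tested were higher by the rule and 1 was lower: TF, transferrin, at 474, 1709, 120.02 and 181 CPM. APOE lay below both controls as well, at 1288, 3714, 979 and 1036 CPM. NRF2 targets and iron genes had 4 of 10 higher and 1 lower, against 23.1% and 2.38%. GCLC of glutathione synthesis was at 0, 32.9, 226 and 420 CPM, and the metallothionein MT1X was at 486, 1512, 97.1 and 170 CPM. Without FTL the sums of the groups overlapped, at 1.54 times control 1 and 0.607 times control 2.

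Cytosolic ribosomal proteins were near the background of nuclear genes. By the rule 8 of 45 tested large-subunit genes and 6 of 32 small-subunit genes were higher, and 0 were lower in either. Over all tested nuclear genes 23.1% were higher and 2.38% lower. RPL19 was at 212, 65.7, 1579 and 1975 CPM. The sums lay between the controls in both lists, and the many processed copies of these genes make their counts uncertain. Of 19 translation factors 4 were higher and 2 lower, the latter being EIF2S1, the alpha subunit of eIF2, at 137, 263, 29.9 and 14.9 CPM, and EEF1D at 262, 822, 105 and 91.2 CPM. Of 25 splicing factors 8 were higher and 1, HNRNPH1, was lower. For translation and splicing factors the shares over all tested nuclear genes are the same 23.1% and 2.38%.

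Among polyamine genes ODC1, AMD1 and SMS were higher by the rule, 3 of 7. For this and the other short lists that follow, the share over all tested nuclear genes was 23.1% higher and 2.38% lower, and nothing is read from their counts. AMD1, which makes the aminopropyl donor, was at 20.8, 32.9, 211 and 173 CPM. SAT1, the acetylating enzyme that begins polyamine breakdown, ran the other way at 27572, 3549, 2256 and 2561 CPM, below both controls. Of 6 tested p53 targets 2 were higher: MDM2, which was at 4.15, 0, 170 and 112 CPM, and GADD45A, at 41.5, 0, 462 and 566 CPM. PCNA, the sliding clamp of DNA replication, was the 1 higher gene of 5 tested cell cycle genes, at 0, 32.9, 348 and 307 CPM. Of 11 lysosomal genes 4 were higher, LAMP2 at 33.2, 32.9, 372 and 389 CPM among them. In the cytoskeleton list 2 of 18 were higher and 1, the myosin MYH9, was lower, at 715, 2349.9, 269.9 and 217 CPM.

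Some nuclear genes had no count in either control and were common at 100 µM. ABL2, a non-receptor tyrosine kinase, had 1110 and 667 counts, at least 51.1-fold higher than 3 counts over both controls would give, and at least 40.8-fold and 10.3-fold against control 1 and control 2 taken alone. MAPRE1, which encodes the microtubule end-binding protein EB1, had 1378 and 464 counts, at least 49.8-fold higher by the limit over both controls. ZFP91, a zinc finger ubiquitin ligase, had 575 and 920 counts and MYLIP, a ubiquitin ligase, had 710 and 685 counts, at least 48.0-fold and 42.4-fold higher by the same limit. Against 3 counts in control 2 alone the limits were lower, at 10.0-fold for MAPRE1, 9.70-fold for ZFP91 and 8.55-fold for MYLIP. KRT8P3, a processed copy of the keratin gene KRT8, had 662 and 679 counts, which cannot be told apart from reads of KRT8. The rule for named genes also gave CHKA, choline kinase alpha, KLF5, a transcription factor, CFAP53 and DCTN2, a dynactin subunit. These 4 had no control count and between 163 and 271 CPM at 100 µM. Among non-coding genes the long non-coding RNA CYTOR had a single count in control 1 and 1206 and 643 counts in the 100 µM libraries, a pooled ratio of 160.2 (interval 28.7 to 6332), and it has a near-identical relative, so its counts are uncertain. PPP4R1L, a pseudogene, and ENSG00000278000 were at 0 in both controls, with 474 and 305 counts for the first and 471 and 335 for the second at 100 µM.

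The 75 genes lower against both controls had a median level of 423 CPM in controls and 43.1 CPM at 100 µM. Those named by the smallest p mostly had few counts at 100 µM. CTNS, the lysosomal cystine exporter, had 80, 19, 3 and 2 counts, or 332, 312, 1.40 and 1.49 CPM, with a log2 fold change of -8.24 ± 2.03 and an adjusted p of 0.204. PCMTD2 had 228, 45, 20 and 0 counts. Its controls stood at 947 and 739 CPM, and the 100 µM libraries at 9.34 and 0 CPM. P3H4, an ER protein of collagen modification, had 14, 71, 1 and 4 counts, VSNL1, a calcium sensor, had 28, 18, 2 and 4, WDR55, a nucleolar protein, had 19, 15, 6 and 0, and PGGT1B, a subunit of a protein prenylation enzyme, had 28, 11, 0 and 4. PIK3C3, the lipid kinase that starts autophagosomes, was at 212, 4207, 21.9 and 11.2 CPM, and control 2 was far above control 1. HNRNPH1, a splicing regulator, was the most abundant of the 10, at 7981, 1939, 337 and 350 CPM, with a log2 fold change of -4.63 ± 1.12 and an adjusted p of 0.204. TUBA1A, at 353, 1906, 40.6 and 52.3 CPM, and ANKRD36C, at 120.5, 2941, 17.3 and 6.72 CPM, have near-identical relatives, as HNRNPH1 has, so their counts are uncertain. Of other gene types, the olfactory receptor pseudogene OR7E14P was at 162, 246, 29.4 and 0 CPM and ENSG00000274627 had 806, 575, 5.14 and 11.95 CPM. MTATP6P1, a nuclear copy of mtDNA sequence with MT-ATP6 in it, was at 357, 394, 175 and 172 CPM, and reads of the mtDNA gene can be assigned to it. None of these passed the test.

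For some of the best counted genes the answer turned on which control was used. DCBLD2, a membrane receptor, was at 10146, 98.6, 1894 and 1758 CPM, 5.56-fold lower than control 1 and 18.5-fold higher than control 2. PPP1CB, a catalytic subunit of protein phosphatase 1, was at 11189, 131, 374 and 301 CPM, ERO1A, an ER oxidase, at 9286, 65.7, 1138 and 1042 CPM, and CAPZA1, an actin capping protein, at 7213, 32.9, 249 and 151 CPM. In these 4 control 1 was the high library. COPB1, a coat protein of Golgi vesicles, was at 29.1, 5078, 184 and 124 CPM, SON, a splicing protein, at 249, 2284, 700 and 1105 CPM, and FAU, a ribosomal protein precursor, at 224, 2301, 530 and 701 CPM. In these 3, as in NDUFB9, control 2 was the high library and control 1 the low one. They were chosen for this pattern, so they carry no test.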

How the data were processed

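The authors deposited 1 table of raw read counts by gene for each library, in the layout of featureCounts. Per the submitters' processing notes, FastQC, STAR, featureCounts and DESeq2 were used with GRCh38, without versions. Which annotation release was used, whether counting used strand and how overlapping or multiply mapped reads were handled are not given in the sources used here, and each can change counts of short, overlapping or repeated genes. Of the 57500 identifiers, 56898 were in GENCODE v29, which gave symbols and gene types, and 0 lines named no gene. Sample titles gave the groups and replicate numbers, and 0 value columns were unused.

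CPM are counts scaled to the library total. edgeR 4.0.16 in R 4.3.3 was run with filterByExpr, TMM scaling and robust quasi-likelihood fits of all 6 libraries as group means, with two-sided tests adjusted by Benjamini-Hochberg over the 3180 genes kept at a threshold of 0.05. Fits against 1 control left out the other. DESeq2 1.42.0, its size factors, other filters, folds and floors, the 4 libraries alone, a replicate block and leaving out each library were alternatives. Shares were compared by exact permutation tests in scipy 1.17.1 under Python 3.11.15, with pandas 2.3.3, numpy 2.4.6 and matplotlib 3.10.9. A gene at 0 was set to 3 counts over the pooled controls. An exact 95% interval is printed for some, not all, of the genes with 1 to 3 control counts.

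The members and the 35 gene lists were chosen with earlier results of these data known. Named genes were the mtDNA protein genes, the 3 most abundant mtDNA transfer RNAs, the 10 consistent protein-coding genes in each direction with the smallest p and at least 10 CPM, 4 of other types, the 5 most abundant with no control count, and up to 3 consistent members of each list. Other members of the lists, and genes that moved oppositely against the controls, were named after their values were seen. Some genes that met the rule for named genes or belong to these lists are not reported here.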

Additional observations from a re-analysis of the deposited data

How the results depend on the processing

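The number of genes passing turned on the tool and on single control libraries. From 0 it became 4 with DESeq2 size factors (all mtDNA, lower), 220 with DESeq2's Wald test and 3 with that test on every gene with a count, and it ranged from 0 to 204 when each library was left out in turn (103 without control 1, 204 without control 2). Genes at an unadjusted p under 0.05 were 3 higher and 27 lower without the first 100 µM library and 3 and 26 without the second. Deviations of same-numbered libraries correlated at 0.000331, 0.00315 and -0.0222. With so few counts in the control and 10 µM libraries, these values cannot tell whether the replicate numbers pair the libraries. With a replicate block 22 genes passed, 18 mtDNA and 4 nuclear, all lower. By the 2-fold rule the 727 higher nuclear genes became 233 at 4-fold, 426 with a floor of 5 counts and 464 with TMM scaling, and 1050 to 1482 against 1 control. The 75 lower ones became 43 at 4-fold, 152 with TMM and 41 with at least 20 counts in each control, and 337 to 418 against 1 control. The mtDNA counts stayed within 1.5 times.

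Without each library in turn, the difference in mtDNA share ran from -6.99 to -0.899 percentage points, that in transfer RNA share from -9.03 to -6.08 and that in complex IV share from 15.1 to 25.3. Of 97 named genes 93 kept their direction throughout. MT-CO1 was higher at log2 0.33 with library totals, 0.84 at a mean of 5 CPM, 0.49 with no filter and 0.054 in the 4 libraries alone, and at 0.079 to 0.53 without 1 library. MT-CO3 reached 0.55 and 0.19 under these filters (-0.36 to 0.17 without 1 library), MT-ND4 0.052 at a mean of 5 CPM, and MT-TL1 0.031 with library totals, 0.43 and 0.078 under the filters, and -0.58 to 0.27 without 1 library. Scalings of list sums, and the 2-fold rule with the filter set by 4 libraries, were added after seeing the data. With DESeq2 size factors the log2 ratio turned negative for import (-0.14), fatty acid oxidation (-0.18), heat shock (-0.57), glycolysis (-0.082), PPAR alpha (-0.80), translation factors (-0.53), cell cycle (-0.59), p53 (-0.0056), lysosome (-0.33) and MAPK (-0.056). With TMM it did for heat shock (-0.12), PPAR alpha (-0.34), translation factors (-0.068) and cell cycle (-0.12), and without FTL for NRF2 targets (-0.20). The cause of these shifts was not tested. In control 2 a gene under 49.3 CPM cannot be told from 0.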
